A study of Homo sapiens with 6 samples.

Results

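A set of 10 genes of drug and cation transport, 5 encoding organic cation transporters and 5 encoding efflux pumps of the ABC family, were followed in MDA-MB-231 cells after treatment with guadecitabine. The genes were SLC47A1, SLC47A2, SLC22A3, SLC22A4 and SLC22A5 on one side and ABCB1, ABCC1, ABCC3, ABCC4 and ABCG2 on the other. They were taken by gene symbol, and all 10 were found among the 17100 transcripts of the table. The set was put together with the difference between guadecitabine and vehicle already known, so that each member's own difference is given here as a description, without a p-value.

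MDA-MB-231 is an established human cell line from a triple-negative breast adenocarcinoma. Guadecitabine (SGI-110) is a prodrug of decitabine, a nucleoside analogue that traps DNA methyltransferases. RNA was prepared from 3 cultures given vehicle and 3 given 1 µM guadecitabine for 96 h, which then stayed without drug for 24 h before harvest. The study's methods speak of independent experiments, all in this 1 line. The labels do not describe the vehicle further. In bulk RNA, a change in the share of cells that use a gene and a change in RNA per cell cannot be told apart.

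Organic cation transporters move positively charged drugs, monoamines and nutrients across membranes. Members of the SLC22 family mostly take such substrates up, while the SLC47 proteins exchange them outward for protons and are best known from the kidney and liver. Efflux pumps of the ABC family use ATP to export their substrates, and several of them have been studied for years because they can lower the amount of chemotherapy inside tumour cells. SLC47A1 and SLC47A2 encode the exporters MATE1 and MATE2. SLC22A3 encodes the cation transporter OCT3, SLC22A4 encodes OCTN1, a carrier of ergothioneine, and SLC22A5 encodes OCTN2, the high-affinity carrier of carnitine. ABCB1 encodes P-glycoprotein, ABCC1, ABCC3 and ABCC4 encode the multidrug resistance proteins MRP1, MRP3 and MRP4, and ABCG2 encodes the breast cancer resistance protein BCRP.

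Library totals ranged from 17602570 to 22277442 counts in vehicle and from 8792127 to 21410849 in guadecitabine, with guadecitabine replicate 2 the smallest. Vehicle replicate 3 stood apart, with 20 transcripts at 0 counts against 1593 to 2517 in the other libraries. Among the 2782 transcripts with at most 1 count in each of vehicle replicates 1 and 2, it held a median of 19 counts, or 7.78 counts per kb of exon. VIM and CD44, markers used for this mesenchymal-like line, had at least 32223 and 13085 counts in every library, and the epithelial genes KRT8, KRT18 and EPCAM had 8244 to 26328, 5901 to 15527 and 90 to 466. The hormone receptor genes ESR1 and PGR had at most 1 count outside vehicle replicate 3, which had 67 and 43. ERBB2 had at least 552 counts in every library. Other cell types were followed by short marker lists. Summed normalized counts of the markers of blood cells (3 of 5 in the table) were 141 to 239 in vehicle and 172 to 189.6 after guadecitabine, those of endothelium (3 of 3) 57.1 to 142 and 94.1 to 119, and those of the proximal tubule (5 of 5), mostly AQP1, 584 to 733 and 493 to 662. Those of hepatocytes (4 of 5) were 1277 to 1772 and 2663 to 3124, mostly SERPINA1. Outside vehicle replicate 3, PTPRC, ALB and SLC34A1 had at most 3 counts and CDH5 at most 4. Some other markers were not this low. Over all 6 libraries, CD14 had 91 to 257 counts, PECAM1 39 to 104 and CUBN 20 to 142. CD14 and PECAM1 made up most of the blood and endothelium sums.

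Because guadecitabine acts on methylation of CpG dinucleotides, the DNA around the start of each member's deposited transcript was read from GRCh37, the assembly of hg19. In a window of 250 bases before and 50 bases after the start, SLC22A3 had 48 CpG, ABCC4 47, ABCC1 42, SLC22A5 36, SLC47A1 30, SLC22A4 29 and ABCC3 29. The median of all 17093 windows was 22, with quartiles of 10 and 32. ABCG2 had 6 CpG, SLC47A2 had 5 and ABCB1 had 2. The 30 bases just upstream of the start are shown for the 4 members with the largest differences and for ABCB1, on the strand of the gene, with each CpG in capitals.

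SLC47A1, chr17:19437137-19437166, plus strand: ctgcagagcaggctgcactgCGCGgtaccc
SLC22A3, chr6:160769375-160769404, plus strand: gagtaaagagaggcCGcCGgctgggtcCGc
ABCC3, chr17:48712188-48712217, plus strand: CGggtcCGggCGgagCGCGgggtgCGgagg
ABCG2, chr4:89152475-89152504, minus strand: aaatgtggttcataatcagctagtagtgga
ABCB1, chr7:87342640-87342669, minus strand: ttcatgtagctcctcctctggtactgggat

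The 30 bases before SLC47A1, SLC22A3 and ABCC3 hold 2, 3 and 6 CpG, and those before ABCG2 and ABCB1 hold 0. The motif of the GC box, GGGCGG on either strand, was found in the windows of SLC47A1 (4 matches), SLC22A3 (3), SLC22A4 (5), SLC22A5 (4), ABCC1 (3) and ABCC3 (3). It was found in 61.0% of all windows. The letters CCAAT on either strand were found once each in the windows of SLC47A2, SLC22A4 and ABCG2, against 35.4% of all windows, and TATAAA in the window of none of the 10 members, against 8.4% of all. These windows belong to 1 transcript per gene, other start sites were not analysed here, and methylation was not measured in these libraries.

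Of the members, 8 had enough counts to be tested, and SLC47A2 and ABCB1 did not. Of the 8, 6 passed an adjusted p of 0.05 (quasi-likelihood test of edgeR, Benjamini-Hochberg adjustment over 13322 genes), 2 of them higher and 4 lower after guadecitabine. Over all genes tested, 37.7% passed, 19.3% higher and 18.4% lower. The groups did not overlap in 7 of the 8 members, 3 higher and 4 lower, against 51.7% of all genes tested, 26.6% higher and 25.0% lower. Since the members were chosen from this contrast, nothing is read from these counts. The number of members past the threshold was 4 without vehicle replicate 1, without vehicle replicate 2 or without guadecitabine replicate 3, and 5 without guadecitabine replicate 1, where the calls of SLC22A5, of ABCC1 or of both were lost. It was 6 without vehicle replicate 3. The median log2 fold change was -0.19 over the 8 members and 0.02 over all genes tested.

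**Figure D1:**
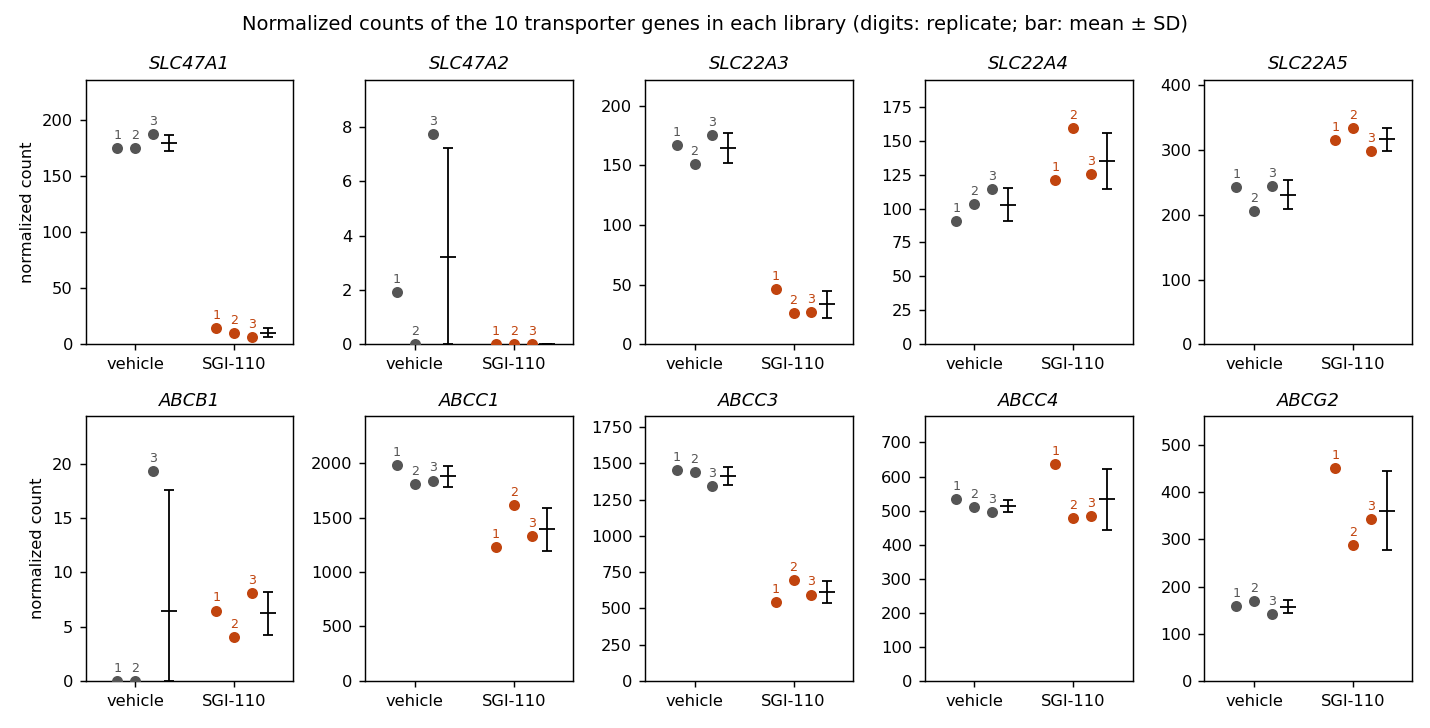
Normalized counts (TMM, scaled to the mean library total) of the 10 transporter genes in the 3 vehicle libraries (grey) and the 3 guadecitabine libraries (SGI-110, red), with the replicate number at each point and the mean ± SD beside each group. SLC47A1, SLC22A3 and ABCC3 are lower in all 3 guadecitabine libraries and ABCG2 is higher in all 3, while SLC47A2 and ABCB1 stay at or below 19.3 normalized counts in every library.

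The MATE1 gene SLC47A1 showed the widest difference of the set. On GRCh37 it lies on chromosome 17 from 19437167 to 19482346 on the plus strand. It had 184, 166 and 243 reads in vehicle replicates 1, 2 and 3, and 18, 5 and 6 reads in guadecitabine replicates 1, 2 and 3. The lowest vehicle library therefore lay 12.0 times above the highest guadecitabine library after normalization. Normalized counts were 179.7 ± 7.18 in vehicle and 10.3 ± 4.27 after guadecitabine (SD, n = 3 each), 17.5-fold lower. The log2 fold change was -4.08 with a standard error of 0.30, and it stayed between -4.55 and -3.78 with each library left out in turn. Replicate 1 was the highest of the guadecitabine libraries for this gene. Its window with 30 CpG and 4 GC boxes lies in the middle of the set, and 70.0% of all windows held fewer CpG.

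The MATE2 gene SLC47A2 lies 182.9 kb from SLC47A1, start to start, on the opposite strand, from 19581628 to 19620043 on chromosome 17. It had 2, 0 and 10 reads in vehicle and 0 reads in each of the guadecitabine libraries. Only vehicle replicate 3 exceeded the floor of 3 reads, with 4.25 counts per kb, below the lower quartile of 5.46 counts per kb among transcripts that were near 0 in the other vehicle libraries. No fold change is given, since SLC47A2 was at or under the floor everywhere else.

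The OCT3 gene SLC22A3, on chromosome 6 from 160769405 to 160873611 on the plus strand, was also lower in every guadecitabine library. It had 175, 143 and 227 reads in vehicle and 57, 13 and 27 reads after guadecitabine. Normalized counts went from 165 ± 12.3 to 33.3 ± 11.2 (SD, n = 3 each), 4.94-fold lower. The log2 fold change was -2.26 with a standard error of 0.26, and the lowest vehicle library lay 3.27 times above the highest guadecitabine library. As for SLC47A1, replicate 1 was the highest of the guadecitabine libraries, and without it the log2 fold change was -2.60. The window of SLC22A3 was the richest in CpG of the set, and 96.6% of all windows had fewer.

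The pair of carnitine and ergothioneine carriers lies on chromosome 5, with the starts of SLC22A4 and SLC22A5 75.3 kb apart on the plus strand, SLC22A4 from 131630145 to 131679899 and SLC22A5 from 131705401 to 131731306. In both, every guadecitabine library was higher than every vehicle library, by a small margin. SLC22A5 had 255, 194 and 317 reads in vehicle and 390, 164 and 296 after guadecitabine, and its normalized counts went from 231 ± 22.6 to 317 ± 17.5 (SD, n = 3 each), 1.37-fold higher. The log2 fold change was 0.45 with a standard error of 0.13. SLC22A4 had 95, 98 and 148 reads in vehicle and 149, 78 and 124 after guadecitabine. Its normalized counts of 103 ± 12.0 and 135 ± 20.8 (SD, n = 3 each) gave a log2 fold change of 0.38 with a standard error of 0.19, which did not pass the threshold under any of the alternatives. The groups of SLC22A4 lay close, at 90.6 to 114 normalized counts in vehicle (highest in replicate 3) and 121 to 159 after guadecitabine (highest in replicate 2). The ratio of SLC22A5 to SLC22A4 in reads per kb was 1.38 ± 0.23 in vehicle and 1.45 ± 0.16 after guadecitabine (SD, n = 3 each), a difference smaller than either spread. Exons of the antisense gene MIR3936HG overlap 235 bp of SLC22A4 and 327 bp of SLC22A5, and exons of an antisense gene without a symbol overlap 185 bp of SLC47A1. The kit named in the labels does not mark the strand, so reads of these overlaps cannot be told apart between the genes.

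Among the pumps, the MRP genes ABCC1 and ABCC3 were the most abundant and were lower after guadecitabine. ABCC3 lies on chromosome 17 from 48712218 to 48769063 on the plus strand. It had 1523, 1363 and 1738 reads in vehicle and 673, 342 and 589 after guadecitabine, which is 1413 ± 59.6 and 613 ± 77.2 normalized counts (SD, n = 3 each), 2.31-fold lower. The log2 fold change of ABCC3 was -1.21 with a standard error of 0.12, between -1.31 and -1.13 with each library left out. ABCC1, on chromosome 16 from 16043434 to 16236930 on the plus strand, had 2081, 1710 and 2380 reads in vehicle and 1519, 792 and 1313 after guadecitabine. Its normalized counts of 1878 ± 93.9 and 1391 ± 199 (SD, n = 3 each) differed 1.35-fold, with a log2 fold change of -0.44 and a standard error of 0.12. The margin was narrow, since the lowest vehicle library lay 1.12 times above the highest guadecitabine library, replicate 2. ABCC4, which encodes MRP4, an exporter of cyclic nucleotides and nucleotide analogues, lies on chromosome 13 from 95672083 to 95953700 on the minus strand. It had 559, 482 and 642 reads in vehicle and 786, 235 and 478 after guadecitabine. Guadecitabine replicate 1 of ABCC4 lay above and replicates 2 and 3 below all vehicle libraries, at 513 ± 18.5 and 533 ± 90.2 normalized counts (SD, n = 3 each), and the log2 fold change was 0.06 with a standard error of 0.13.

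ABCG2 was the member with the largest difference upward. It lies on chromosome 4 from 89011416 to 89152474 on the minus strand. It had 167, 160 and 184 reads in vehicle and 557, 141 and 340 after guadecitabine. Normalized counts were 157 ± 13.6 in vehicle and 361 ± 83.5 after guadecitabine (SD, n = 3 each), 2.30-fold higher, and the values of the libraries ran from 142 to 169 and from 287 to 452. The log2 fold change was 1.22 with a standard error of 0.18, between 1.02 and 1.35 with each library left out. Unlike the other members that differed most, its deposited transcript starts in a window with few CpG, and 16.0% of all windows had fewer. This holds for that start only. The 30 bases before it were not found in the RefSeq promoter sequences of ABCG2, and other starts of the gene were not analysed.

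ABCB1, the gene of P-glycoprotein, was near the limit of detection. It lies on chromosome 7 from 87133179 to 87342639 on the minus strand. It had 0, 0 and 25 reads in vehicle and 8, 2 and 8 reads after guadecitabine. The 25 reads of vehicle replicate 3 were 5.30 counts per kb. This is below the median of 7.78 and the lower quartile of 5.46 counts per kb among transcripts that were near 0 in the other vehicle libraries. With these reads the groups overlap, and without that library the 3 guadecitabine libraries held more reads than the other 2. A fold change is not given, because vehicle replicates 1 and 2 are at 0 and guadecitabine replicate 2 is under the floor of 3 reads, which covers counting error only. With so few reads, and with vehicle replicate 3 above all guadecitabine libraries, no difference in ABCB1 was read from these counts.

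**Figure D2:**
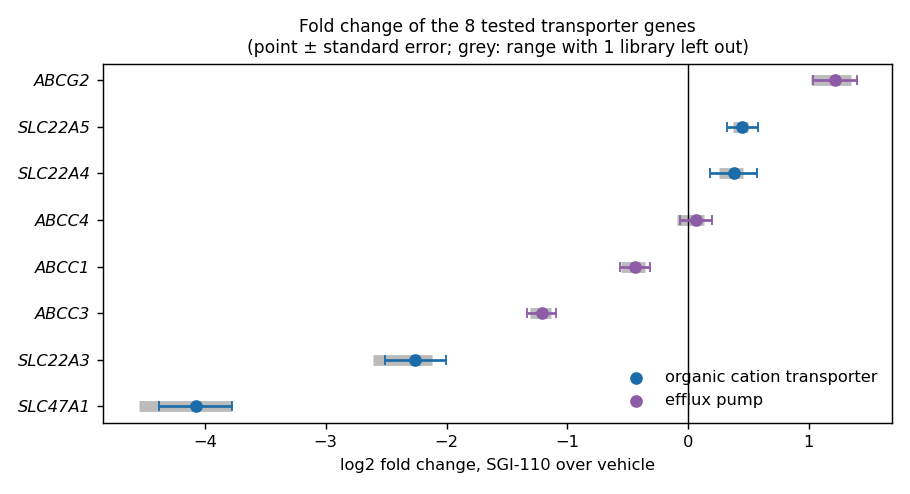
Log2 fold change of the 8 tested transporter genes, guadecitabine (SGI-110) over vehicle, with the standard error of the edgeR fit as bars and the range with 1 library left out in grey. SLC47A1 lies at -4.08, SLC22A3 at -2.26, ABCC3 at -1.21 and ABCG2 at 1.22, and the bars of ABCC4 include 0.

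In 7 of the 8 tested members the guadecitabine libraries had the larger spread relative to their mean, a difference for which no test was run. The share of all genes with this order was not worked out, so nothing is read from the count. The coefficient of variation of normalized counts in vehicle was 3.99% for SLC47A1, 7.50% for SLC22A3, 4.22% for ABCC3, 3.61% for ABCC4 and 8.66% for ABCG2. After guadecitabine it was 41.5%, 33.5%, 12.6%, 16.9% and 23.1%. The largest of these rest on few reads, 5 to 18 for SLC47A1 and 13 to 57 for SLC22A3, and were not separated from counting error. In SLC22A5 it was 9.76% in vehicle and 5.53% after guadecitabine. Replicate 1 had the highest and replicate 2 the lowest normalized count of ABCG2 and ABCC4 among the guadecitabine libraries, while ABCC1, ABCC3 and SLC22A4 were highest in replicate 2 and lowest in replicate 1. Replicate 2 is the smallest library, and its part in this was not tested.

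To compare levels between genes, each normalized count was divided by its transcript's exon length in kb. In vehicle, the levels of ABCC1 and ABCC3 were 286 ± 14.3 and 273 ± 11.5 reads per kb (SD, n = 3 each) and overlapped. They were followed by ABCC4 at 89.8 ± 3.24, SLC22A5 at 72.1 ± 7.04, SLC47A1 at 54.8 ± 2.19, SLC22A4 at 52.6 ± 6.11, SLC22A3 at 50.8 ± 3.81 and ABCG2 at 36.7 ± 3.18. Among these, the ranges of SLC47A1, SLC22A4 and SLC22A3 overlapped from one to the next, and the other neighbours in the order did not overlap. ABCB1 and SLC47A2, both at 1.37 reads per kb, owed most of it to vehicle replicate 3. The median over all genes tested was 149 reads per kb in vehicle, so that ABCC1 and ABCC3 stood above it and the other members below.

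After guadecitabine, ABCC1 remained first with 212 ± 30.3 reads per kb, and ABCC3 followed with 119 ± 14.9 and no overlap between them. SLC22A5 at 98.7 ± 5.46, ABCC4 at 93.3 ± 15.8, ABCG2 at 84.4 ± 19.5 and SLC22A4 at 69.0 ± 10.7 came next, each overlapping its neighbour in this order. SLC22A3 at 10.3 ± 3.44 and SLC47A1 at 3.14 ± 1.30 reads per kb lay apart below them, and ABCB1 at 1.32 ± 0.43 was lower still, its highest library at 1.72 against 1.85 in the lowest of SLC47A1. The median over all genes tested was 154 reads per kb.

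The make-up of each class was read as shares of its summed reads per kb. SLC47A1 made up 23.5%, 24.7% and 22.9% of the organic cation transporter sum in vehicle replicates 1, 2 and 3, and 2.49%, 1.58% and 1.10% after guadecitabine. SLC22A3 went from 21.9% ± 0.59 to 5.71% ± 2.00 (SD, n = 3 each). The carnitine carrier SLC22A5 held 31.1% ± 1.95 of the sum in vehicle and 54.6% ± 1.41 after guadecitabine, and SLC22A4 held 22.7% ± 2.13 and 38.0% ± 3.41. These OCTN genes held the largest shares in each of the guadecitabine libraries. The sum itself was 232 ± 16.6 reads per kb in vehicle and 181 ± 14.7 after guadecitabine.

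Among the pumps, ABCC1 held a similar share in both groups, 41.6% ± 1.12 of the sum in vehicle and 41.5% ± 4.75 after guadecitabine (SD, n = 3 each). ABCC3 went from 39.8% ± 0.92 to 23.3% ± 2.39, and ABCG2 from 5.34% ± 0.41 to 16.6% ± 4.01. The ratio of ABCC3 to ABCC1 was steady within each group, at 0.93, 1.01 and 0.93 in vehicle and 0.56, 0.55 and 0.57 after guadecitabine. The ratio of ABCC1 to ABCG2 was 7.84 ± 0.77 in vehicle and 2.65 ± 0.95 after guadecitabine. The sum of the 5 pumps was 687.5 ± 24.9 reads per kb in vehicle and 510 ± 24.4 after guadecitabine. Sums over genes weigh the abundant ones most, and reads per kb measure RNA, not transport.

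**Figure D3:**
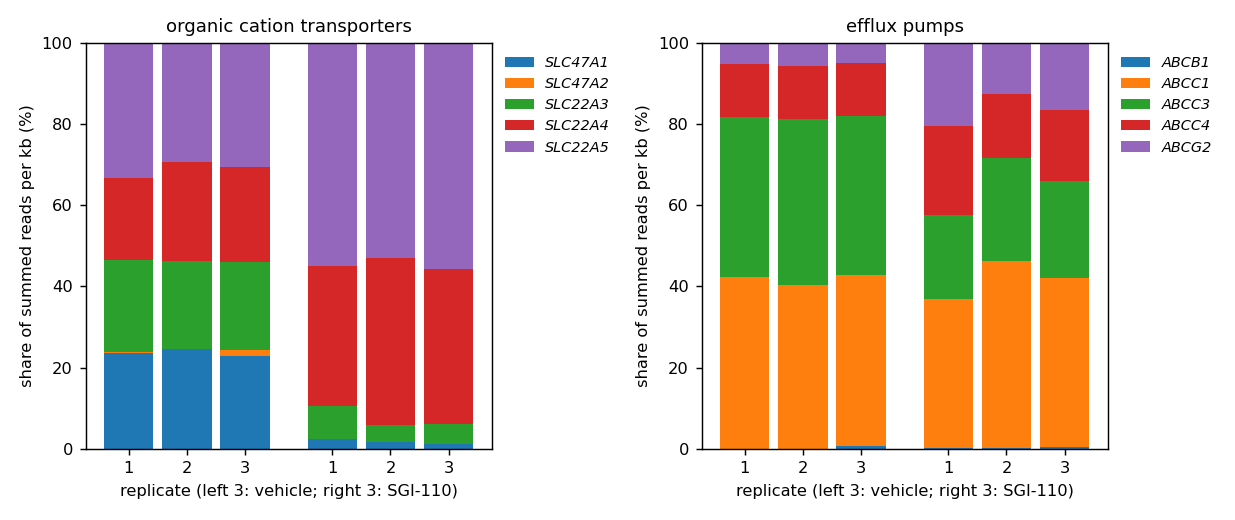
Share of each gene in the summed reads per kb of the 5 organic cation transporters (left) and the 5 efflux pumps (right), 1 bar per library, vehicle on the left and guadecitabine (SGI-110) on the right of each panel. In the left panel the mean share of SLC47A1 shrinks from 23.7% to 1.72% and that of SLC22A5 grows from 31.1% to 54.6%, and in the right panel ABCC3 shrinks from 39.8% to 23.3% while ABCG2 grows from 5.34% to 16.6%.

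The other genes of the SLC22 family were mostly silent in this line. Of 20 listed, 17 were in the table, 10 of them at or under 3 reads in each library other than vehicle replicate 3, and 6 were tested. Of these, 1 rose, 1 fell and 4 did not pass the test, so that 33.3% passed against 37.7% of all genes tested. The median log2 fold change was -0.14 against 0.02 over all genes tested. Without vehicle replicate 3, 5 were tested, 2 rose and 1 fell, with a median of 0.47 against 0.04 over all genes. SLC22A18, an imprinted gene on chromosome 11, fell with a log2 fold change of -0.71 (standard error 0.17, edgeR adjusted p = 0.00951).

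Of the other ABC genes, 43 of 43 listed were in the table and 29 were tested. Of these, 5 rose, 7 fell and 17 did not pass, so that 41.4% passed against 37.7% of all genes tested. The median log2 fold change was -0.03, and 0.15 without vehicle replicate 3. ABCA2, a lipid transporter of endosomes and lysosomes, fell from 1532 ± 204 to 429 ± 22.8 normalized counts (SD, n = 3 each, log2 fold change -1.84, edgeR adjusted p = 1.09e-05). ABCA3, which loads phospholipids into lamellar bodies, fell with a log2 fold change of -0.80 and ABCB6, a porphyrin transporter, with -0.54 (edgeR adjusted p of 0.00211 and 0.0170). The genes TAP1 and TAP2 of the antigen peptide transporter rose, with log2 fold changes of 1.27 and 0.88 (edgeR adjusted p of 0.000647 and 0.00224). The call of ABCB6 was lost without vehicle replicate 1 or 2. Among the drug pumps outside the set, ABCC2 and ABCC5, which encode MRP2 and MRP5, did not pass, although ABCC2, at 10, 11 and 53 reads in vehicle and 38, 16 and 28 after guadecitabine, passed without vehicle replicate 3 (log2 fold change 1.51, edgeR adjusted p = 0.00523).

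**Figure D4:**
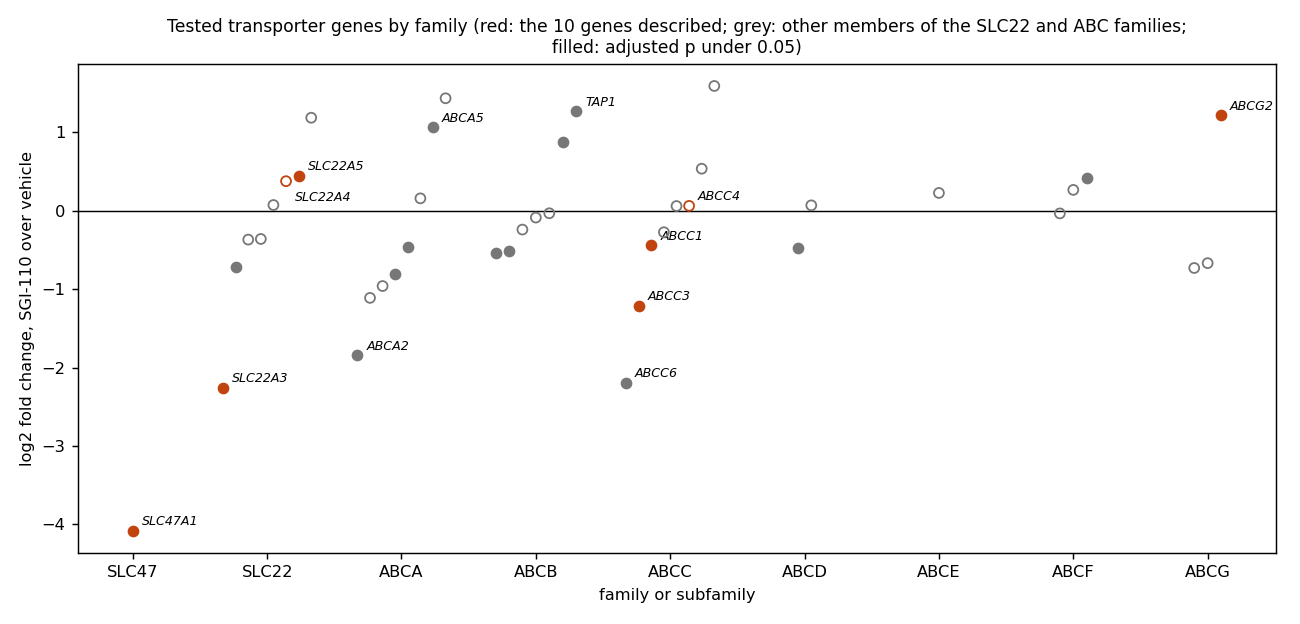
Log2 fold change, guadecitabine (SGI-110) over vehicle, of the tested genes of the SLC47, SLC22 and ABC families, with the described transporter genes in red and the other family members in grey, filled where the adjusted p was under 0.05. SLC22A3 at -2.26 lies at the lower end of the SLC22 column, and ABCC3 at -1.21 and ABCC6 at -2.19 lie at the lower end of the ABCC column.

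Since SLC22A5 carries carnitine, the genes of carnitine synthesis, the mitochondrial carnitine shuttle and fatty acid oxidation were examined with it. Of 16 listed, 14 were tested, 2 rose, 2 fell and 10 did not pass, so that 28.6% passed against 37.7% of all genes tested. SLC25A20, the carnitine and acylcarnitine carrier of mitochondria, rose with a log2 fold change of 0.60, and CPT1C, a brain-type carnitine palmitoyltransferase, with 0.69 (edgeR adjusted p of 0.0149 and 0.00955). CRAT, the carnitine acetyltransferase, fell with a log2 fold change of -0.38 (edgeR adjusted p = 0.0359). The call of SLC25A20 was lost without vehicle replicate 2, and that of CRAT without vehicle replicate 1 or 2 or guadecitabine replicate 1 or 3. The count of this list ranged from 1 to 6 with each library left out, the lowest without vehicle replicate 2 and the highest without vehicle replicate 3.

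The genes on either side of each member were compared with it. Taking the 3 nearest transcripts of the table on each side, 49 genes other than the members were found, 39 were tested, 9 rose and 8 fell, so that 43.6% passed against 37.7% of all genes tested. Around SLC47A1 and SLC47A2, the aldehyde dehydrogenase genes ALDH3A2 and ALDH3A1 fell, with log2 fold changes of -1.15 and -1.52 (edgeR adjusted p of 5.09e-05 and 0.00535), and so did MAPK7 with -0.49 (edgeR adjusted p = 0.0133). ALDH3A2 starts 114.9 kb and ALDH3A1 214.6 kb from the start of SLC47A1, and 0 of the 5 neighbours of SLC47A1 rose. MFAP4 and RNF112 did not pass, at log2 fold changes of -1.04 and -0.68. Without vehicle replicate 3 these were 0.11 and -0.32. On the far side of SLC47A2, ULK2 and AKAP10 did not pass, at log2 fold changes of -0.445 and 0.07. Over all genes tested, 19.3% rose and 18.4% fell. Neighbours were not one-sided at every member, and those of ABCG2 had 3 higher and 1 lower of 5 tested. Around SLC22A4, 4 of the 5 tested neighbours rose and 0 fell. These were CSF2, from 238 ± 12.9 to 4157 ± 167 normalized counts (SD, n = 3 each), PDLIM4 with a log2 fold change of 1.12, P4HA2 with 0.70 and RAD50 with 0.76 (edgeR adjusted p of 3.59e-08, 0.00100, 0.000884 and 0.00789).

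Around SLC22A3, IGF2R, which encodes the mannose phosphate receptor, and the kinase gene MAP3K4 had log2 fold changes of 0.10 and -0.20 and did not pass. SLC22A2, which encodes OCT2, had 4, 1 and 66 reads in vehicle and 0, 0 and 2 after guadecitabine, and was not tested. Beside ABCC3, EPN3 and SPATA20 fell with log2 fold changes of -2.86 and -1.08 (edgeR adjusted p of 0.00405 and 0.000335), and 3 other tested neighbours did not pass. One of them, the calcium channel gene CACNA1G, had 2, 1 and 62 reads in vehicle and 34, 17 and 26 after guadecitabine, and passed without vehicle replicate 3 (log2 fold change 4.14, edgeR adjusted p = 0.00016). Beside ABCC1, the gene of the related transporter ABCC6 fell from 41.8 ± 10.6 to 9.55 ± 4.09 normalized counts (SD, n = 3 each, log2 fold change -2.19, edgeR adjusted p = 0.0101), a call lost without guadecitabine replicate 3. ABCC6 has partial copies in the genome, so that its reads are uncertain. Beside ABCG2, HERC5 and HERC6 rose with log2 fold changes of 0.88 and 0.81 (edgeR adjusted p of 0.00271 and 0.00178), PKD2 fell with -0.55 (edgeR adjusted p = 0.0116, lost without vehicle replicate 1), and PPM1K, the nearest, was at -0.03. SPP1, also beside ABCG2, had 0, 0 and 6 reads in vehicle and 33, 13 and 14 after guadecitabine (edgeR adjusted p = 0.0226), and its call was lost when any library other than vehicle replicate 3 was left out. Beside ABCC4 and ABCB1, DNAJC3 rose with a log2 fold change of 0.61 and SLC25A40 fell with -0.57 (edgeR adjusted p of 0.0150 and 0.0216). The call of each was lost without guadecitabine replicate 3, that of MAPK7 and that of SLC25A40 also without vehicle replicate 1 or 2.

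**Figure D5:**
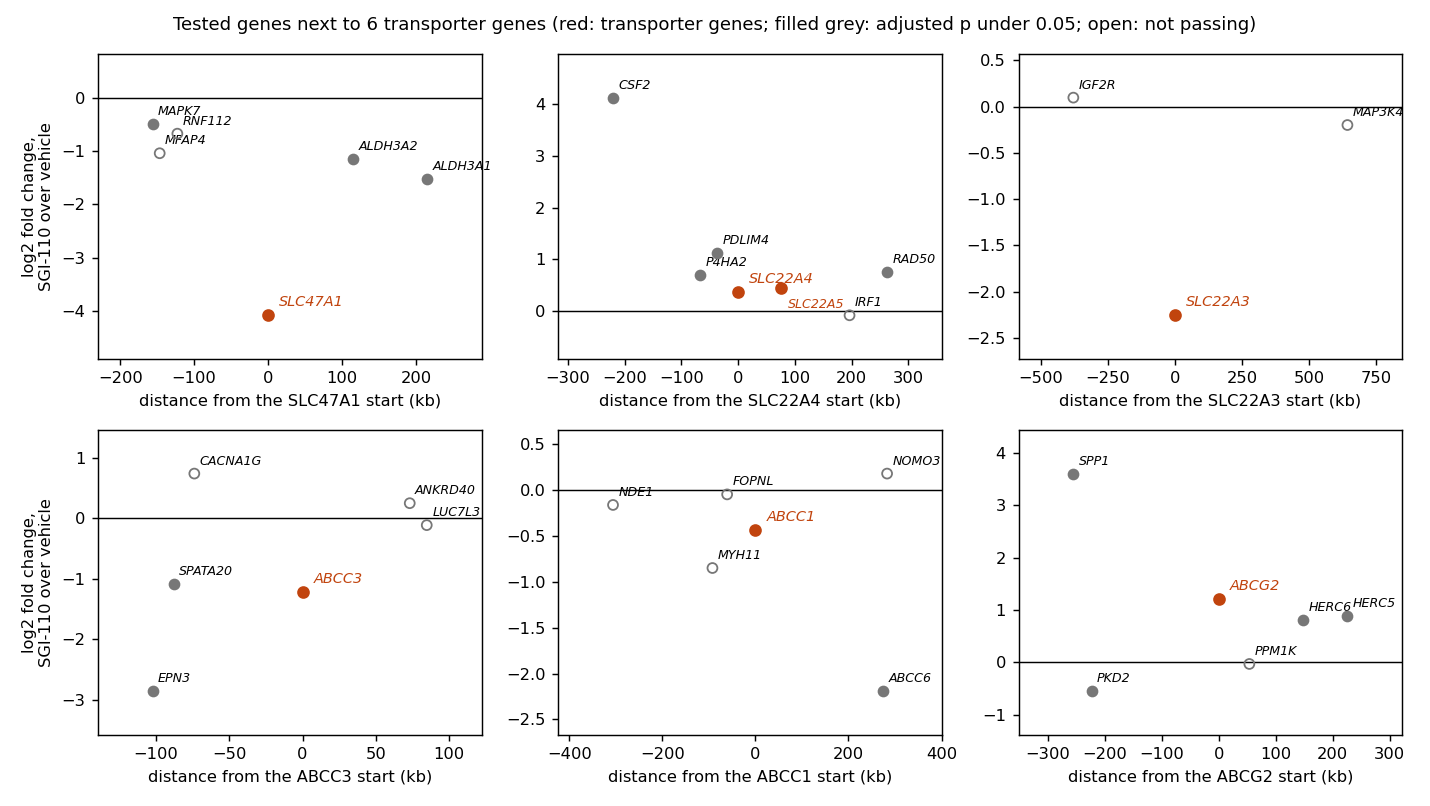
Log2 fold change, guadecitabine (SGI-110) over vehicle, of the tested genes next to 6 transporter genes, by the distance between start sites in kb, with transporter genes in red, SLC22A5 in the panel of SLC22A4, and neighbours in grey, filled where the adjusted p was under 0.05. The neighbours of SLC47A1 lie at or below -0.49, those of SLC22A4 at or above -0.08, and IGF2R and MAP3K4 beside SLC22A3 at 0.10 and -0.20. MFAP4 and RNF112 beside SLC47A1 did not pass, and without vehicle replicate 3 they were at 0.11 and -0.32.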

How the data were processed

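Per the study's methods and the submitters' processing notes, STAR 2.3.1z placed the reads on hg19, and the authors counted reads in exons per RefSeq transcript with iRNA-seq. They deposited these raw counts beside the exon length of each transcript. Handling of reads with several matches is not given in the sources used here. Deposited columns of transformed values and of the authors' own DESeq2 comparison (fold changes, p-values) were not used.

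The 10 members and all gene lists were chosen with earlier results of these data known. The test on the counts was that of edgeR 4.0.16, run in R 4.3.3 (TMM, filterByExpr with a minimum count of 10, quasi-likelihood test, Benjamini-Hochberg adjustment over the 13322 genes kept, threshold 0.05). Fold changes carry edgeR's small prior count, and standard errors come from the F statistic. Normalized counts are TMM-scaled values set to a library of 17911210 counts, the mean total. The floor of detection was 3 reads in a library.

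Named genes were all members, the neighbours that passed, the markers and, per list, up to 3 genes per direction with the largest change among those that passed, did not overlap and had a mean count of at least 100. Other genes named were chosen after their values were seen. Some genes that meet the rule are counted but not reported here by name or in the plots. The scripts were tested on simulated data. Alternatives were a replicate block, the test and size factors of DESeq2 1.42.0, library totals only, omitting the filter, a minimum of 10 counts in all 6 libraries, and each library left out.

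Deposited start positions were read as 0-based and made 1-based. Of the 10 members, 6 were found by symbol in the RefSeq promoter table, which is on another build and was not used for sequences. For SLC22A4 and ABCG2, 2 of these, the 30 bases before the deposited start were not found there. GENCODE 44 on GRCh37 gave overlapping exons.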

Additional observations from a re-analysis of the deposited data

How the results depend on the processing

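The log2 fold changes of the 8 tested members kept their direction under the 12 alternatives (11 for SLC47A1, which has under 10 counts in some libraries), except ABCC4, which ranged from -0.09 to 0.13. SLC47A1, SLC22A3, ABCC3 and ABCG2 were past the threshold under each alternative run, SLC22A5 under 9 of 12, ABCC1 under 8 of 12, and ABCC4 and SLC22A4 under 0. Replicate numbers are shared between the groups, but libraries with the same number had correlations of deviations of -0.05, 0.05 and -0.04, so they were not treated as pairs. With the replicate number as a block, 4654 genes passed against 5022, the members that passed numbered 6, and no call of a member changed. Without a filter, 2 of the other uptake carriers, 2 carnitine genes and 4 regulators passed. With at least 10 counts in every sample, 1 other SLC22 gene and 3 other uptake carriers passed. These settings change how many genes are tested. With each library left out, the counts ranged from 3335 to 5577 over all genes, lowest without guadecitabine replicate 3, from 4 to 6 for members, 3 to 8 for other uptake carriers, 1 to 6 for carnitine genes, 2 to 8 for regulators, 10 to 18 for drug-metabolizing enzymes, 8 to 15 for other ABC genes, 2 to 3 for other SLC22 genes and 12 to 19 for neighbours. SLC47A2 and ABCB1 were limited by few reads and by the reads of vehicle replicate 3.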

Other observations

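Other uptake carriers were followed beside the cation transporters. Of 29 listed carriers of organic anions, monoamines, choline, peptides and vitamins, 15 were tested, 2 rose, 4 fell and 9 did not pass, which is 40.0% against 37.7% of all genes tested. SLCO4A1, an organic anion transporter known to carry thyroid hormone, fell from 3787 ± 104 to 1069 ± 166 normalized counts (SD, n = 3 each, log2 fold change -1.83, edgeR adjusted p = 1.10e-05). SLC44A2, a choline transporter-like protein, fell with a log2 fold change of -0.50 (edgeR adjusted p = 0.00330). SLCO3A1 rose with a log2 fold change of 0.33 (edgeR adjusted p = 0.0469), a call lost with DESeq2's test and with each of the 6 libraries left out.

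Drug-metabolizing enzymes make many of the conjugates that the ABCC pumps export. Of 62 listed, 37 were tested, 9 rose, 6 fell and 22 did not pass, so that 40.5% passed against 37.7% of all genes tested. The glutathione transferase genes GSTM2 and GSTM1 fell, with log2 fold changes of -1.64 and -0.96 (edgeR adjusted p of 6.62e-05 and 0.000171), and so did the epoxide hydrolase gene EPHX1 with -1.07 (edgeR adjusted p = 4.69e-05). Their relative GSTM3 rose with a log2 fold change of 0.445 (edgeR adjusted p = 0.0151), a call lost without vehicle replicate 2 or guadecitabine replicate 3. GSTM4 did not pass, at -0.19. The GSTM genes are close copies, so that reads may be shared between them. GCLC, which encodes the catalytic subunit of an enzyme of glutathione synthesis, rose with a log2 fold change of 0.77 (edgeR adjusted p = 0.00299). The thiopurine methyltransferase gene TPMT rose with 0.88 and the cytochrome gene CYP2S1 with 0.73 (edgeR adjusted p of 0.00205 and 0.00306). CYP1A1, named after its value was seen, had 28, 29 and 43 reads in vehicle and 231, 98 and 170 after guadecitabine, a log2 fold change of 2.61. Of 26 regulators and scaffolds of these transporters, 20 were tested, 1 rose, 6 fell and 13 did not pass. That is 35.0% passing against 37.7% of all genes tested, and the median log2 fold change was -0.22. SLC9A3R2 fell with a log2 fold change of -0.53 and SP1 with -0.49, and FOXO3 rose with 0.45 (edgeR adjusted p of 0.0125, 0.00672 and 0.0286). The call of SLC9A3R2 was lost without vehicle replicate 2 or guadecitabine replicate 3, and that of FOXO3 without vehicle replicate 1 or 2 or guadecitabine replicate 1 or 3. With each library left out, the regulators that passed numbered from 2 to 8, lowest without vehicle replicate 2.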
